A study of Drosophila melanogaster with 2 samples.

Results

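The nuclear genome of Drosophila melanogaster codes for most subunits of the mitochondrial machinery of oxidative phosphorylation. 88 such genes were taken from the 13945 protein-coding genes on the 6 nuclear chromosome arms by their symbols, which begin with ND-, with COX and a digit, or with UQCR-, ATPsyn or Sdh. They comprise 40 genes of complex I, 7 of complex II, 9 of complex III, 16 of complex IV, 15 of complex V and 1 assembly factor of complex II, Sdhaf3. Of the 88, 24 are duplicated copies whose symbol ends in L, or in L and a digit, after the name of the subunit, here called L paralogues. For 4 of them, COX6AL, COX6AL2, COX6CL and ATPsynepsilonL, the partner gene has a name of another kind, levy, cype or sun. The question was where the transcription factor Fer2, a basic helix-loop-helix protein, was found near these genes.

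The series holds a single group of chromatin immunoprecipitation and sequencing (ChIP-seq) samples, biological replicates 2 and 3 by their labels. Both came from whole embryos aged 6 to 24 h of 1 transgenic line that stably expresses Fer2 with GFP at its C terminus, and an antibody against GFP was used on chromatin sonicated to 200 to 800 bp. No untagged or other control sample was analysed here, so no difference between conditions could be tested. All values describe lists of called peaks, and any signal shared by GFP precipitations in general cannot be told apart from signal of Fer2. Whole embryos mix all cell types, and fewer cells of a type with a bound site cannot be told apart from less binding per cell. Each replicate and the pooled alignments have a list of 30000 peaks, and a shorter, thresholded list was kept by the authors for its reproducibility between replicates. It is 9.54% of the pooled list in size and holds peaks with a pooled signal value of at least 75.7. Within a list, peaks were ranked by their deposited signal value, rank 1 being the highest. The summit is the base of highest signal in a peak, a start site is the first base of an annotated transcript (TSS), and an own-promoter summit lies within 500 bp of any start site of the gene in question.

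Complex I takes electrons from NADH and complex II takes them from succinate. Complex III passes them to cytochrome c, complex IV passes them on to oxygen, and complex V, the ATP synthase, makes ATP from the proton gradient that complexes I, III and IV build. Many of the L paralogues of Drosophila are known for expression mainly in the testis, while their partners are expressed broadly. Expression was not measured here.

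At a range of 1 kb in the thresholded list, these genes held peaks about as often as genes in general. Within 1 kb, 19 of the 88 (21.6%) had a thresholded summit, against 23.1% of all 13945 protein-coding genes. At own promoters the thresholded count was 16 of 88 (18.2%), against 15.9% of all genes. The L paralogues and the remaining genes had different shares. None of the 24 L paralogues had a thresholded own-promoter summit, and 16 of the 64 others (25%) had one. Within 1 kb, 2 L paralogues (8.33%) and 17 of the 64 others (26.6%) had one. The genes are short, with a median length of 744 bp in the L paralogues and 1148 bp in the others, against 2166 bp in all genes. A window of 1 kb around a short gene covers less DNA. The own-promoter count takes any start site, so it covers more DNA in a gene with more start sites. The median number of start sites was 1 in the L paralogues and 1.5 in the others, against 1 in all genes.

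The split was also present in the longer lists, which reach down to weak peaks. In the pooled list, 66 of the 88 genes (75%) had a summit within 1 kb, against 67.9% of all genes, and 52 (59.1%) had an own-promoter summit, against 49.6%. Of the L paralogues, 2 of 24 (8.33%) had a pooled own-promoter summit, and of the other genes 50 of 64 (78.1%) did. In replicate 2, 67 genes (76.1%) had a summit within 1 kb and 57 (64.8%) at an own promoter, against 69.8% and 52.6% of all genes. In replicate 3, 72 genes (81.8%) and 56 genes (63.6%) did, against 71.3% and 48.9%. The L paralogues stood below all genes, and the other genes above, in both replicates. An own-promoter summit was listed for 5 L paralogues (20.8%) and 52 other genes (81.2%) in replicate 2, and for 8 L paralogues (33.3%) and 48 other genes (75%) in replicate 3. In both replicate lists at once it was listed for 4 L paralogues (16.7%) and 40 other genes (62.5%), against 38.9% of all genes. Within 1 kb, a summit was listed for 10 L paralogues (41.7%) and 56 other genes (87.5%) in the pooled list. The counts were 9 (37.5%) and 58 (90.6%) in replicate 2, and 15 (62.5%) and 57 (89.1%) in replicate 3. By this wider range the L paralogues came closest to all genes in replicate 3, at 62.5% against 71.3%.

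**Figure D1:**
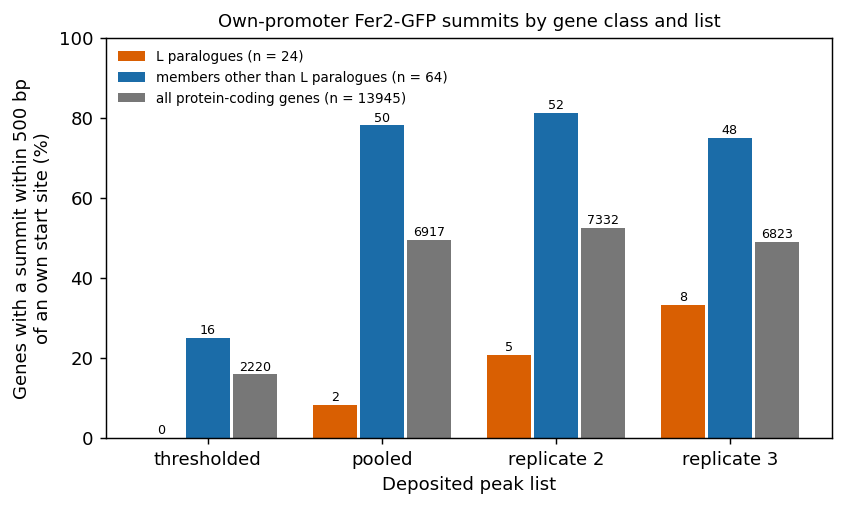
Share of genes (percent) with a summit within 500 bp of an own start site in each of the 4 deposited lists, for the 24 L paralogues, the 64 other genes and all 13945 protein-coding genes, with the number of genes above each bar. The L paralogues stand below all genes in each list, at 0 to 8 genes, and the other genes stand above, at 16 in the thresholded list and 48 to 52 in the other 3.

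The DNA around the highest own-promoter summits is shown here. Sonicated fragments of 200 to 800 bp are longer than the windows shown, so the signal does not come from these bases alone. The windows of 101 bases centred on the thresholded summit belong to the 6 highest-ranked genes for which a sequence is given, with ND-MNLL and ND-B22 added for the words they hold. Sequences come from RefSeq Release 6, which is dm6, and run 5′ to 3′ on the strand of the gene named. Capitals mark matches to any of 10 words searched, among them the E-box CANNTG that basic helix-loop-helix proteins are known to bind, TATAAA, and CGATA, the site of the boundary protein BEAF. The windows are ND-ASHI at chrX:6679321-6679421 on the minus strand, ND-51 at chr2L:6062803-6062903 on the minus strand, ATPsynE at chr3R:14326914-14327014 on the plus strand and ND-SGDH at chr3L:12138631-12138731 on the minus strand. They are joined by COX7B at chr3L:17425313-17425413 on the plus strand, ND-42 at chr3R:22027496-22027596 on the plus strand, ND-MNLL at chrX:7893812-7893912 on the minus strand and ND-B22 at chr2L:13370968-13371068 on the minus strand.
ND-ASHI: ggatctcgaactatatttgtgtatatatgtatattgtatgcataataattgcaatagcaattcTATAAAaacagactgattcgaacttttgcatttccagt
ND-51: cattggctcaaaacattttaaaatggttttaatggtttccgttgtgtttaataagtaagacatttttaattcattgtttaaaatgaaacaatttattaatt
ATPsynE: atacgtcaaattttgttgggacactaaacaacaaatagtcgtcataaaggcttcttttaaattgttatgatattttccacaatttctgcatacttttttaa
ND-SGDH: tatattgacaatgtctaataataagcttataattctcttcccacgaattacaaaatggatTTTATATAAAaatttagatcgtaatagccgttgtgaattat
COX7B: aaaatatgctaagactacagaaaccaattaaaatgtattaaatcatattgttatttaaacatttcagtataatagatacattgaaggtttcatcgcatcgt
ND-42: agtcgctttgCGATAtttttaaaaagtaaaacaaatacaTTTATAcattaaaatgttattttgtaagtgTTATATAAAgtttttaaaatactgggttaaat
ND-MNLL: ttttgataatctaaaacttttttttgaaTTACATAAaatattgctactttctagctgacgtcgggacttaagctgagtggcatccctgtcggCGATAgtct
ND-B22: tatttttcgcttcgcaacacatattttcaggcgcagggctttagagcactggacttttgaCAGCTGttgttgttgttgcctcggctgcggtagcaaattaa

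Among these windows, that of ND-B22 alone holds an E-box, CAGCTG. ND-ASHI, ND-SGDH and ND-42 hold TATAAA, and ND-51, ATPsynE and COX7B hold none of the words.

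Complex I, the NADH dehydrogenase, is the largest of the complexes. Of its 40 genes, 9 had a thresholded summit within 1 kb (22.5%), near the 23.1% of all genes. The same 9 had one at an own promoter, against 15.9% of all genes. None of the 9 was an L paralogue, so the count among the other 34 was 26.5%. The highest belonged to ND-ASHI, an accessory subunit of the membrane arm, with a pooled signal value of 283 (rank 320) and values of 98.1 (rank 538) in replicate 2 and 188 (rank 225) in replicate 3. Its summit lay at −253 bp from the start site of ND-ASHI. It also lay at −269 bp from that of Fum1, the gene of the fumarase of the citric acid cycle, on the opposite strand. ND-MWFE, another small membrane-arm subunit, had a signal value of 265 (rank 359), with 105 (rank 468) in replicate 2 and 157 (rank 319) in replicate 3. The ND-MWFE summit lay closer to the start site of TppII, at −63 bp, than to its own, at −158 bp. ND-51, which carries the NADH binding site and the flavin, had 221 (rank 518), with 88.1 (rank 667) in replicate 2 and 134 (rank 438) in replicate 3. For these 3 genes both replicates ranked the peak within their first 667. Signal values are the authors' own, and their scale differs between lists, so the ranks are the values to set side by side.

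The other 6 peaks at complex I promoters were lower. ND-SGDH ranked 860 in the thresholded list, 911 in replicate 2 and 810 in replicate 3. ND-42 ranked 1236, with 730 in replicate 2 and 2615 in replicate 3, and its summit lay closer to the start site of Cchl, at −66 bp, than to its own, at −163 bp. Cchl codes for the enzyme that attaches heme to cytochrome c. ND-23 and ND-24, both iron-sulfur subunits of the core that carries electrons, ranked 1317 and 1345. ND-23 shares its upstream region with spn-E, a helicase gene of the piRNA pathway, and ND-24 with corolla, a gene of the synaptonemal complex. ND-MNLL ranked 1698. ND-B22 had an own-promoter peak of rank 2297 at +8 bp and a higher peak of rank 576 at +1892 bp, past its 3′ end and at −70 bp from the start site of CG31855. The higher ND-B22 peak thus lay nearer the start site of the neighbour, though position alone does not tell which gene it belongs to.

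Complex II, the succinate dehydrogenase, had no thresholded own-promoter summit in its 7 genes, against 15.9% of all genes. Within 1 kb, 1 of the 7 (14.3%) had a thresholded summit, against 23.1% of all genes. This was SdhB, the gene of the iron-sulfur subunit, with a summit of rank 984 at +2230 bp, past its 3′ end. That summit lay at −90 bp from the start site of CG15237. At its own promoter SdhB had a pooled rank of 5406. The membrane anchors SdhC and SdhD had own-promoter summits of pooled rank 4235 and 3506. The flavoprotein gene SdhA had a pooled summit of rank 3112 at −860 bp, and a summit at its own promoter in replicate 2 alone, of rank 5715. All 3 of its L paralogues lacked an own-promoter summit in every list. The assembly factor gene Sdhaf3 had a pooled own-promoter rank of 10637, a rank of 5044 in replicate 3 and no peak in replicate 2.

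Complex III, the cytochrome bc1 complex, had a thresholded summit within 1 kb at 1 of 9 genes (11.1%), against 23.1% of all genes. It had none at an own promoter, against 15.9% of all genes. The gene with a summit was the L paralogue UQCR-6.4L, at rank 2496 and +1035 bp, past the 3′ end. No other protein-coding start site lay within 500 bp of it. Its replicate ranks were 2553 and 3583. Of the other 6 genes of complex III, 5 (83.3%) had a pooled own-promoter summit, against 49.6% of all genes. The highest ranked 4242 at UQCR-14 and 5090 at the core subunit gene UQCR-C2. The core subunit gene UQCR-C1 ranked 15689. UQCR-11 had an own-promoter summit in replicate 3 alone, of rank 19562.

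Complex IV, the cytochrome c oxidase, had the highest share of thresholded promoters among its genes other than L paralogues. Of those, 4 of 8 (50%) had an own-promoter summit, against 9 of 34 in complex I, none of 4 in complex II, none of 6 in complex III and 3 of 11 in complex V. The share over all genes was 15.9%. Counted with its L paralogues, complex IV had 4 of 16 (25%). With 4 to 34 genes in a complex, each gene moves a share by several percentage points, and the difference between complexes was not tested. COX7B ranked 989 in the thresholded list, 1421 in replicate 2 and 819 in replicate 3. COX5A ranked 1285, with 1833 in replicate 2 and 1202 in replicate 3, and COX5B ranked 1493, with 2069 and 1239. The COX5B summit lay closer to the start site of IFT52, at −74 bp, than to its own, at −224 bp. COX6B ranked 2076, with 3633 in replicate 2 and 1488 in replicate 3. All 4 ranked higher in replicate 3. The fifth thresholded gene, the L paralogue COX7AL2, had its summit in the gene at +1120 bp, at rank 2277. COX4 had a pooled own-promoter summit of rank 5394 at −42 bp. COX8 had an own-promoter summit of rank 3364 in replicate 2 and none in replicate 3.

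Complex V had 3 thresholded own-promoter summits in 15 genes (20%), against 15.9% of all genes. ATPsynE, a membrane subunit of the synthase, had the highest, of rank 823 at +17 bp, with ranks of 1434 in replicate 2 and 605 in replicate 3. Its second peak, of rank 1957, lay past the 3′ end of the gene, at +857 bp from the nearest own start site. That summit lay at −126 bp from the start site of spn-B. ATPsynCF6, which codes for coupling factor 6 of the stator, ranked 1508 at −144 bp, with 3092 in replicate 2 and 993 in replicate 3. That summit lay closer to the start site of Sec13, at −70 bp. ATPsynB, the gene of the stator subunit b, ranked 2761 at −32 bp, close to the end of the list, with 2278 and 3437. ATPsyngamma, the gene of the central stalk, stood just below the threshold at rank 3212, with 3370 and 3347 in the replicates. ATPsynbeta, the gene of the catalytic subunit, had a pooled rank of 6766 at −9 bp, with 4694 and 4606. Of the genes without a thresholded peak, ATPsynC, the gene of the rotor ring, had a pooled own-promoter rank of 16496, ATPsynD 26605 and ATPsynF 21851.

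**Figure D2:**
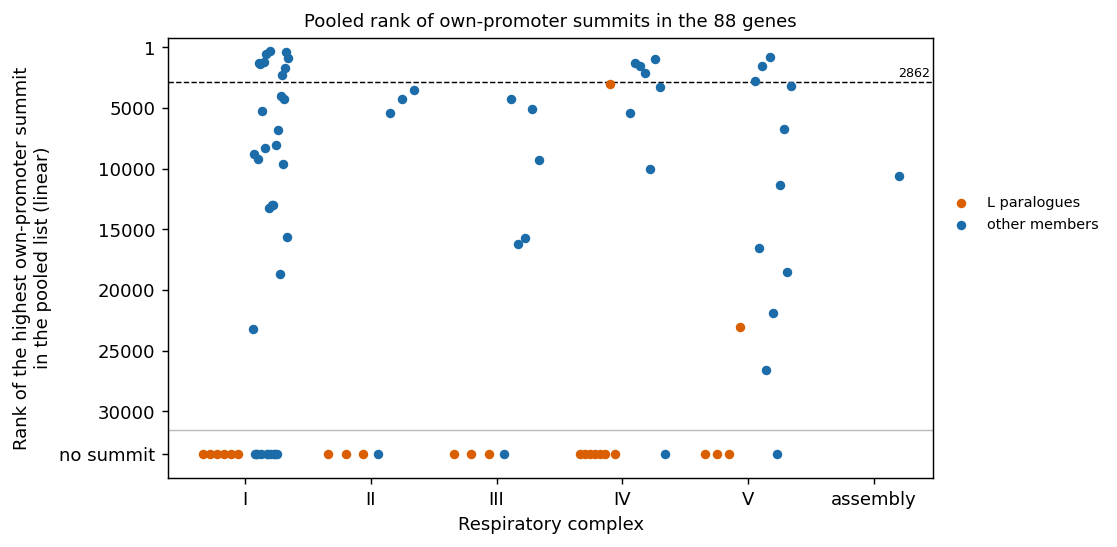
Pooled rank of the highest own-promoter summit of each of the 88 genes (linear axis, rank 1 at the top) by respiratory complex, with L paralogues to the left of the other genes and genes without a summit at the bottom. The dashed line marks the end of the thresholded list; 16 genes lie above it, none of them an L paralogue.

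The genes just past the end of the thresholded list were SdhA at pooled rank 3112, ATPsyngamma at 3212, COX7C at 3232 and SdhD at 3506. ATPsynB at 2761 and UQCR-6.4L at 2496 were the lowest within it. Within 1 kb, the median best pooled rank, with genes without a peak placed last, was 9819 over the 88 genes and 6264.5 over the 64 without L paralogues, against 12077 over all genes. For the L paralogues it lay past the end of the list. Of the first 4 complex I genes by symbol without a thresholded peak, ND-13A had a pooled own-promoter rank of 23180 and ND-13B of 8810. ND-15 and ND-18 had no pooled own-promoter summit.

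The 16 thresholded own-promoter summits sat slightly upstream of the start site, as promoter summits in general did. The median distance from the own start site was −102 bp (quartiles −147.5 and −58.2; range −253 to 17), against −144 bp (−220 and −85) over all 2220 genes with a thresholded own-promoter summit. The median rank was 1301, against 1201 over those genes. The median GC content of the 101 bases around the summit was 27.7%, against 29.7%. The medians of the 16 genes lay within the quartiles of all such genes in these 3 measures. In the pooled list the median distance of the 50 own-promoter summits of genes other than L paralogues was −81.5 bp (quartiles −120 and −47.5), against −113 bp (−224 and −4) over 6917 genes.

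Both replicates listed a peak over each of the 16 own-promoter peaks. The replicates' summits lay a median of 33.5 bp apart, from 2 to 80 bp. The peak ranked within as many peaks as the thresholded list holds in replicate 2 for 13 of the 16, in replicate 3 for 15, and in both for 12. ND-B22, COX6B and ATPsynCF6 fell past that size in replicate 2, and ATPsynB in replicate 3. Replicate 3 ranked 12 of the 16 higher than replicate 2. The 4 that replicate 2 ranked higher were ND-23, ND-42, ND-MNLL and ATPsynB. The thresholded list was itself made from both replicates, which shared 1 control alignment, so this overlap follows in part from how the list was made.

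**Figure D3:**
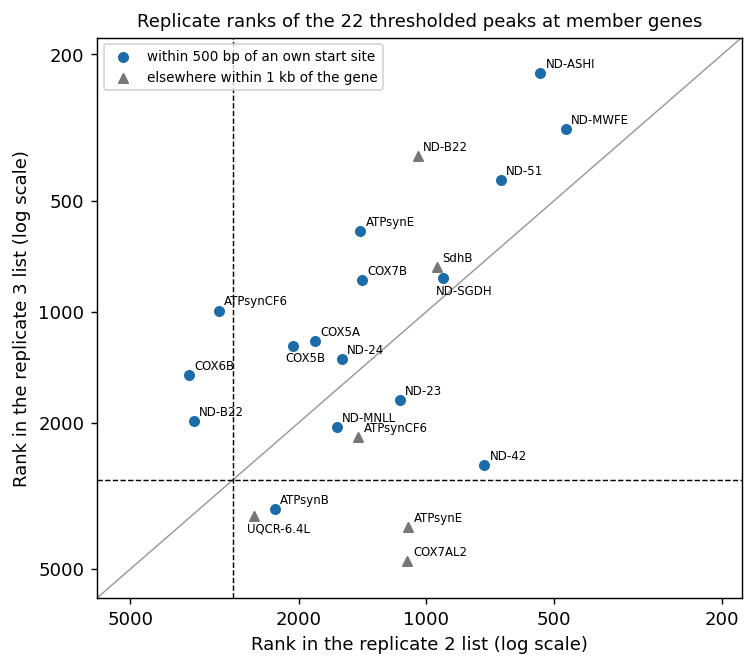
Rank in replicate 2 (horizontal) and in replicate 3 (vertical) of each of the 22 thresholded peaks within 1 kb of the genes, on log axes with higher ranks to the right and top; circles are own-promoter summits and triangles the others, and the dashed lines mark the size of the thresholded list. Most circles lie above the diagonal, where replicate 3 ranked the peak higher, and ND-ASHI, ND-MWFE and ND-51 lie farthest to the top right.

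The L paralogues were set beside their partners in 24 pairs, which have 21 partners because ND-51, COX7A and levy each have 2 copies. The partners levy, cype and sun lie outside the 88 genes. In the thresholded list, the L paralogue had an own-promoter summit in no pair, and the partner had one in 8 of 24 pairs. Those 8 pairs have 6 of the 21 partners (28.6%), against 15.9% of all genes. The 6 partners were ND-24, ND-51 in both its pairs, COX5B, levy in both its pairs, cype and ATPsynCF6. In the pooled list, both genes had an own-promoter summit in 1 pair, only the L paralogue had one in 1 pair, only the partner in 19 and neither in 3. Replicate 2 gave 4 pairs with both, 1 with only the L paralogue, 17 with only the partner and 2 with neither. Replicate 3 gave 6, 2, 13 and 3. In pairs with both, the partner's own-promoter summit ranked higher in 0 of 1 in the pooled list, 2 of 4 in replicate 2 and 4 of 6 in replicate 3. Of the 21 partners, 17 had an own-promoter summit in the pooled list, against 49.6% of all genes. In replicate 2 it was 18, against 52.6%, and in replicate 3 it was 16, against 48.9%. By this own-promoter measure, pairs with a summit at the partner alone were the most common kind in each of these 3 lists. Within 1 kb, the pooled list gave 9 pairs with both, 1 with only the L paralogue, 12 with only the partner and 2 with neither. Replicate 2 gave 9, 0, 14 and 1 within 1 kb. Replicate 3 gave 13, 2, 9 and 0, so there pairs with both were the most common kind. Pairs are not replicates of each other, and no test was made over them.

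COX7AL2 was the L paralogue with the strongest own-promoter summit, at pooled rank 3010 and +461 bp, against a pooled rank of 10009 at −47 bp for COX7A. Its own-promoter ranks were 5903 in replicate 2 and 13565 in replicate 3, against 7660 and 29403 for COX7A. In replicate 3 a higher COX7AL2 summit, of rank 1742, lay at +501 bp, just outside the 500 bp limit. COX7AL2 is 5388 bp long, far above the median L paralogue, with 3 start sites and 8 pooled summits within 1 kb. ATPsynepsilonL had a summit at rank 23073, against none for sun. The pairs with neither were SdhAL with SdhA, UQCR-11L with UQCR-11 and ATPsynGL with ATPsynG. Other L paralogue summits were seen in the replicate lists alone and ranked 15589 or lower. ND-51L1 ranked 23128 in replicate 2 and 15589 in replicate 3, and ND-B14.5AL ranked 16971 and 27345. UQCR-6.4L at 17558, COX6AL2 at 25925, COX6CL at 28782 and COX7AL at 20509 had one in replicate 3 alone, and ATPsynCF6L at 27237 in replicate 2 alone.

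ND-20L, ND-24L, UQCR-11L, UQCR-14L, COX5BL, COX6AL and ATPsynbetaL had no summit within 1 kb in any list. In 3 pairs both genes are close neighbours, and the difference was seen there too in the pooled list. COX5BL lies 122 bp from COX5B and had no own-promoter summit, against rank 1493 for COX5B. COX7CL lies 281 bp from COX7C and had none, against rank 3232 for COX7C. COX7AL lies 2625 bp from COX7A and had none, against rank 10009 for COX7A. The replicates did not all go this way. In replicate 3 COX7AL had an own-promoter rank of 20509, against 29403 for COX7A, while in replicate 2 COX7A alone had one, 7660. Within 1 kb in replicate 2, COX7CL ranked 7939, against 8156 for COX7C. The remaining partners had pooled own-promoter ranks of 9159 (ND-20), 8329 (ND-49), 12951 (ND-B14.5A), 5406 (SdhB), 4235 (SdhC), 4242 (UQCR-14), 16226 (UQCR-6.4), 5394 (COX4) and 6766 (ATPsynbeta). Their paralogues, ND-20L, ND-49L, ND-B14.5AL, SdhBL, SdhCL, UQCR-14L, UQCR-6.4L, COX4L and ATPsynbetaL, had no pooled own-promoter summit. ND-51L2, like ND-51L1, had none, against rank 518 for ND-51.

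**Figure D4:**
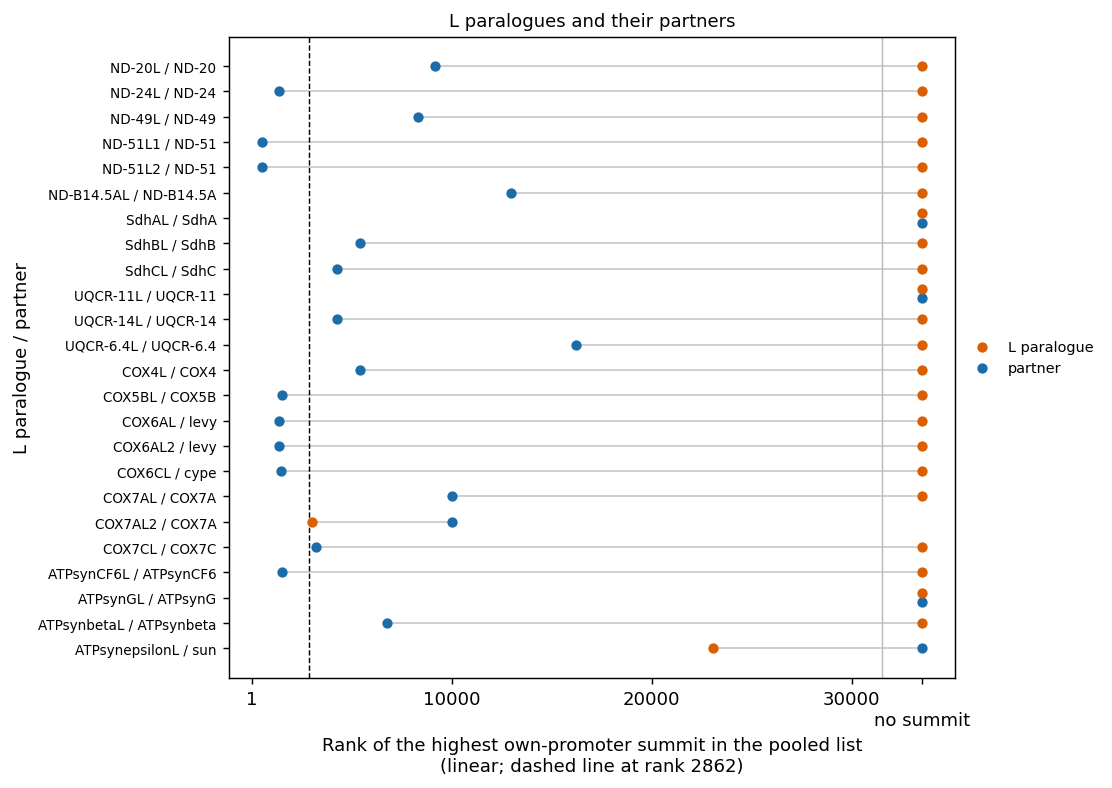
Pooled rank of the highest own-promoter summit of each L paralogue and its partner in the 24 pairs (linear axis), joined by a line where the values differ; the column at the right holds genes without a summit. In 22 of the pairs the L paralogue is in that column, and COX7AL2 and ATPsynepsilonL are the exceptions.

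The genes other than L paralogues often share an upstream region with a gene on the opposite strand. A protein-coding neighbour's start site lay up to 500 bp upstream on the other strand, here called head to head, for 3 of 24 L paralogues (12.5%) and 36 of 64 other genes (56.2%), against 27.4% of all genes. Among head-to-head genes, a thresholded own-promoter summit was found at none of the 3 L paralogues and at 14 of the 36 others (38.9%), against 34.8% of all head-to-head genes. Among genes not so arranged, it was found at none of 21 L paralogues and at 2 of 28 others (7.14%), ND-B22 and ATPsynB, against 8.81% of all such genes. Within each arrangement the thresholded share of the other genes was thus near that of all genes. The pooled list differed from this. Own-promoter summits were listed at 1 of 3 L paralogues and 29 of 36 others (80.6%) in head-to-head genes, against 70.1%. In the remaining genes they were listed at 1 of 21 L paralogues (4.76%) and 21 of 28 others (75%), against 41.9%.

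Another gene's start site lay within 500 bp of 14 of the 16 own-promoter summits (87.5%), against 65.6% of the 2220 genes with a thresholded own-promoter summit. The gene's own start site was strictly the nearest in 10 of the 16, and in 2 more, ND-MNLL and COX6B, another gene's start site was equally near. Which gene of such a pair a peak belongs to cannot be told from its position. Besides Fum1, which starts 164 bp from ND-ASHI, and Cchl, which starts 229 bp from ND-42, the neighbours at these summits include spn-E, corolla, RhoGAP68F, Sec3, glo, IFT52, Sec13 and Afti. These neighbours were named after their values were seen.

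**Figure D5:**
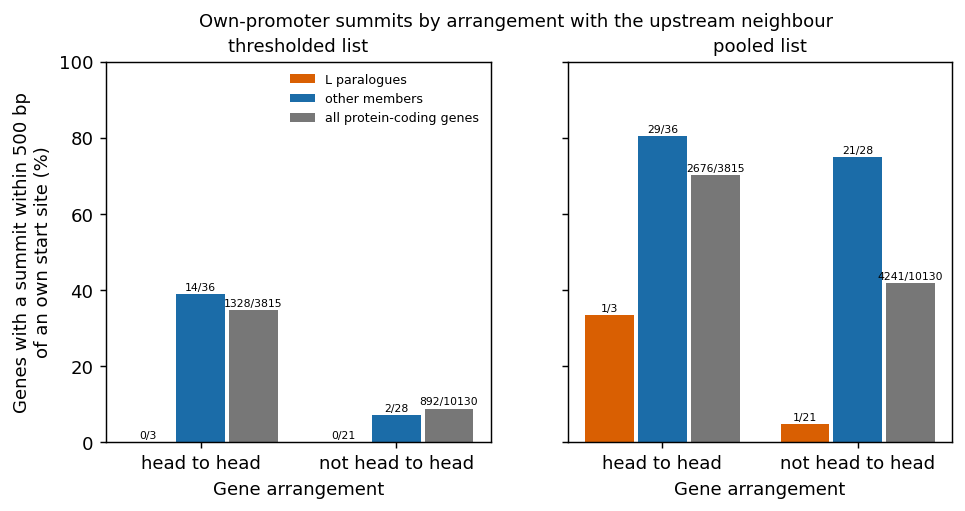
Share of genes (percent) with an own-promoter summit in the thresholded list (left panel) and the pooled list (right panel), by whether a protein-coding neighbour starts up to 500 bp upstream on the opposite strand; counts stand above the bars. In the thresholded list the other genes stand at 14 of 36 and 2 of 28, close to all genes, and in the pooled list they stand at 29 of 36 and 21 of 28, above all genes.

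DNA words were counted within 50 bp of the 16 own-promoter summits, on both strands, and in the same windows of all 1597 thresholded promoter summits. The E-box was present at 1 summit (6.25%), against 29.8%. With the replicate 3 list alone it was present at 2 of 16 (12.5%), against 32.9%, and with replicate 2 alone at 3 of 13 (23.1%), against 29.6%. TATAAA was present at 5 (31.2%), against 27.5%, and CGATA at 5 (31.2%), against 18.9%. Within 25 bp CGATA was present at 1 (6.25%), against 10.3%, which turns the direction. The core of the nuclear respiratory gene element, searched as TTACATAA, TTACGTAA, TTATATAA and TTATGTAA, was present at 3 (18.8%), ND-SGDH, ND-42 and ND-MNLL, against 4.13%. With replicate 3 alone it was present at 1 of 16 (6.25%), against 3.18%, and with replicate 2 alone at 2 of 13 (15.4%), against 3.67%. The replicates' summits lay 74 bp apart at ND-SGDH, 77 bp at ND-42 and 80 bp at ND-MNLL. These were the largest such distances among the 16, so the place of the summit is least certain there. In ND-SGDH and ND-42 the respiratory gene core overlaps TATAAA. The homeodomain core TAATTA was present at 1, ND-24, against 12.3%. The DRE TATCGATA, which contains CGATA and is bound by Dref, was present at none, against 2.82%, as were the core GGTCACAC of the core promoter motif Ohler 1 (0.751%) and TGCGCA (1.57%). CCGGAA (3.63%) and GATAAG (5.13%) were also present at none. These windows hold 16 summits, so 1 summit is 6.25%.

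At the 50 pooled own-promoter summits of the genes other than L paralogues the E-box share was closer to that of all genes, 15 of 50 (30%) against 35.1% of 6917. CGATA was at 16 (32%), against 21.0%, the nuclear respiratory gene core at 3 (6%), against 2.39%, and GATAAG at none, against 6.48%. In promoter windows from 250 bases before to 50 after the outermost start site, whatever their peaks, GGTCACAC was found in 1 L paralogue, COX7AL (4.17%), and in 15 of 64 others (23.4%), against 7.71% of all genes. TATAAA was found in 9 L paralogues (37.5%) and 40 others (62.5%), against 45.9%. The DRE was found in no L paralogue and in 9 others (14.1%), against 9.37%, and the E-box in 21 L paralogues (87.5%) and 48 others (75%), against 77.3%. The E-box was thus common in the promoters of both kinds of gene.

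Genes of the pathway that the symbols do not take were set beside these. Of 12 subunit and carrier genes, 5 (41.7%) had a thresholded summit within 1 kb, against 23.1% of all genes. They were blw, the gene of the catalytic-head subunit alpha of complex V, both cytochrome c genes, Cyt-c-d and Cyt-c-p, and the complex IV subunit genes levy and cype. The highest blw peak, of rank 66, lay past its 3′ end, and its own-promoter summit ranked 792. Cyt-c-d ranked 448 and Cyt-c-p 621, both inside the gene. The Cyt-c-d summit, at +352 bp, was an own-promoter summit. That of Cyt-c-p, at +941 bp, was not, and the pooled own-promoter rank of Cyt-c-p was 7462. The genes sun, RFeSP, Cyt-c1, ox, sesB, Ant2 and porin had none. Of 7 regulator genes, 2 had a thresholded own-promoter summit (28.6%, against 15.9% of all genes), the gene of the nuclear receptor ERR at rank 502 and that of the DRE-binding factor Dref at rank 393. The others were ewg, Ets97D, srl, TFAM and mtTFB2. Of 3 assembly factor genes, CIA30, the gene of a complex I assembly factor, ranked 36 in the thresholded list, 37 in replicate 2 and 39 in replicate 3, while Surf1 and Scox had no peak in any list. The CIA30 promoter peak thus ranked above that of every subunit gene given here.

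Ribosomal protein genes, another group coding for subunits of large complexes, were set beside these. A thresholded own-promoter summit was found at 16 of the 88 oxidative phosphorylation genes (18.2%), or 16 of the 64 that are not L paralogues (25%). It was found at 28 of 73 mitochondrial ribosomal protein genes (38.4%) and 62 of 92 cytosolic ones (67.4%), against 15.9% of all genes. In the pooled list the shares were 59.1% of the 88 genes and 78.1% of the 64, with 71.2% of the mitochondrial and 88% of the cytosolic ribosomal protein genes, against 49.6% of all genes. The order against the mitochondrial ribosomal protein genes in the pooled list thus depends on whether the L paralogues are counted.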

How the data were processed

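The authors deposited 4 peak lists on dm6, 1 for each replicate, 1 from the pooled alignments and 1 thresholded list made from them. Which caller, settings and threshold they used is not given in the sources used here. Per peak, the authors' signal value, a score with no stated scale, served to order the peaks of each list. The −log10 of the q-value, also deposited, could not order the thresholded list, because all its peaks share 1 value, 3.83. In the pooled list 3388 peaks share that value. The lowest value was 0.152 in the pooled list, 0.297 in replicate 2 and 0.162 in replicate 3. The lowest peaks of the lists of 30000 thus had weak q-values. Read counts are not part of these lists, so the depth is unknown and intervals for counting error cannot be had.

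Genes and start sites came from Ensembl release 115 and sequence from RefSeq Release 6, whose arm lengths hold every peak. Summits were assigned within 1 kb of a gene or 500 bp of a start site with Python 3.11.15, numpy 2.4.6 and pandas 2.3.3, and figures were drawn with matplotlib 3.10.9. The assignment was tested on simulated data. The genes, lists and alternatives were chosen with earlier results of these data known. Names follow a rule: all L paralogues and partners, the 4 genes with the highest thresholded peak in each complex, and up to 4 without one in symbol order. Others with a thresholded peak, genes just past the threshold, neighbours of summits, COX8, the core subunit genes and Sdhaf3 were named after their values were seen. Pooled-summit words, promoter words, head-to-head neighbours, summits in both replicates and per-gene backgrounds were also added after seeing the data. TfAM, Coa3, Pet100 and Pet117 were not found under those symbols. Counts of genes and pairs were set beside those of all genes, without a test.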

Additional observations from a re-analysis of the deposited data

How the results depend on the processing

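Of 91 alternatives computed, 47 changed a count by no more than 1.5 times. Either replicate was also used alone, cut to as many of its highest peaks as the thresholded list holds. Within 1 kb this gave 18 genes in replicate 2 (20.5%), against 22.3% of all genes. Replicate 3 gave 19 (21.6%), against 23.5%. The counts were 9 to 10 in complex I, 1 to 2 in complex II, 0 to 1 in complex III, 4 to 6 in complex IV and 2 in complex V. The single replicates gave 1 to 2 L paralogues and 6 to 8 partners. In 12 to 15 genes the highest peak was at an own promoter. Own-promoter summits numbered 16 in replicate 3 and 13 in replicate 2. Of them, 2 to 3 held an E-box, 3 to 4 CGATA and 1 to 2 the respiratory gene core. The complex III gene (UQCR-6.4L) is lost without replicate 2, and complex II gains 1 gene (SdhA). The 1431 highest thresholded peaks alone left 12 genes, with 0 in complex III, 2 in complex IV, 1 in complex V, 0 L paralogues and 4 partners, against 13.7% of all genes. The whole pooled list gave 66 genes (75%), against 67.9% of all genes. They were 30 in complex I, 7 in II, 6 in III, 10 in IV and 12 in V, besides Sdhaf3. The pooled list gave 10 L paralogues, 18 partners and 43 highest peaks at own promoters. Summits in the gene alone left 5 genes, with 2 in complex I, 0 in II, 0 in III, 2 in IV, 1 in V, 1 L paralogue and 1 partner, against 8.42% of all genes. A range of 5 kb gave 39 genes, with 16 in complex I, 4 in II, 5 in III, 8 in IV, 6 in V, 4 L paralogues and 13 partners, against 39.8%. Own promoters alone left 16 genes (18.2%), against 15.9% of all genes. These held 0 genes of complex II, 0 of III and 0 L paralogues. Nearest start sites alone left 16 genes (18.2%), against 16.0% of all genes, with 0 in complex II and 3 partners. Windows of 25 bp left CGATA at 1 summit (6.25%), against 10.3% of all promoter summits. Shorter or longer lists and ranges admit fewer or more peaks by construction. The cause of the shifts with a single replicate, which keep the list size, was not tested. No paired analysis was possible because there is 1 group. Without read counts, weak peaks cannot be told from noise, and a gene without a listed peak may still hold signal below the end of the list.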
